A study of Mus musculus with 28 samples.

Results

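RNA was compared between Lewis lung carcinoma (LLC) cells that had grown in mice and LLC cells kept in culture. LLC is a transplantable mouse lung tumour line that elicits little immunity by itself. The in vivo group held 5 libraries of tumour cells sorted on day 16 from tumours of LLC-OVA-NGFR cells, a line named for ovalbumin (OVA) and NGFR, a nerve growth factor receptor, of which 1000000 had been injected under the skin of Rag1 knock-out mice. Such hosts lack mature lymphocytes other than natural killer cells and keep their myeloid cells, and they received 2000000 activated OT1 T cells, which carry a T cell receptor against ovalbumin, by tail vein on day 9. The culture group held 3 libraries of LLC cells labelled wild type and vehicle-treated, taken at the 32 h point of a separate experiment. Members were all libraries with these labels, 8 of the 28 in the series, and all genes with at least 1 TPM (transcripts scaled to a total of 1000000 per library) in 3 or more of the 8, which were 12941 of 55291. For levels side by side, 5 libraries of the OT1 cells sorted on the same day are also given, and 9 libraries of the 32 h experiment: LLC cells pretreated for 24 h with 200 nM BAY-876, an inhibitor of the glucose transporter GLUT1, then given 20 ng/ml of tumour necrosis factor (TNF), cells given TNF alone and cells given BAY-876 alone, 3 libraries each. Labels give neither the age and sex of the mice nor whether 1 tumour was 1 library, and they do not say that the cultured cells carried the OVA and NGFR constructs. Below, tumours 1 to 5 stand for the 5 tumour libraries.

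Growth in a mouse, T cell transfer, the construct, tissue dissociation, sorting and the experiment itself all differed between the groups at once. Their parts in any difference below cannot be told apart. A p-value here measures the spread between these libraries, and a change in RNA per cell cannot be told from a change in the mix of cells sorted.

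Interferon-gamma, which activated T cells and natural killer cells release, signals through the kinases JAK1 and JAK2. The pathway acts on gamma-activated sites (GAS) and raises the transcription factor IRF1, and IRF factors bind interferon-stimulated response elements (ISRE) upstream of antiviral GTPases, the immunoproteasome and the class I antigen presentation genes. TNF, another T cell and macrophage cytokine, acts through NF-kappaB. Class I molecules display peptides such as that of ovalbumin to CD8 T cells like OT1, and LLC cells in culture carry little class I at their surface.

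The promoters of 6 genes described below are shown first, because they hold the letters these factors are known to bind. Each line is the 250 bases before the start of a RefSeq transcript on GRCm38.p6, 5′ to 3′ on the gene's strand, with matches to ISRE (GAAA, any 2 bases, GAAA) and GAS (TTCNNNGAA) on either strand in capitals. Gbp2 (chr3:142620413-142620662, forward strand), Irgm1 (chr11:48871421-48871670, reverse strand) and Tgtp1 (chr11:48992247-48992496, reverse strand) encode interferon-induced GTPases, Irf1 (chr11:53769764-53770013, forward strand) a transcription factor, Cxcl10 (chr5:92348890-92349139, reverse strand) a T cell chemokine and B2m (chr2:122147437-122147686, forward strand) the light chain of class I molecules.
Gbp2: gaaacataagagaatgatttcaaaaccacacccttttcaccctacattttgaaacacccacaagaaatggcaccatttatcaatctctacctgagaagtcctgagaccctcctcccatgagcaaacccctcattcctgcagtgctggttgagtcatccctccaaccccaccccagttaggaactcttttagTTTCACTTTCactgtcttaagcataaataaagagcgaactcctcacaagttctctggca
Irgm1: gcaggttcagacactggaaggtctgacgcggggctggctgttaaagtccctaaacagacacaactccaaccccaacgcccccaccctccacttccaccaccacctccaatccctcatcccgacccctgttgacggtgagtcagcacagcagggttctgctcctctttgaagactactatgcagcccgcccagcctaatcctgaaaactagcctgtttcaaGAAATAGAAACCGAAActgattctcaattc
Tgtp1: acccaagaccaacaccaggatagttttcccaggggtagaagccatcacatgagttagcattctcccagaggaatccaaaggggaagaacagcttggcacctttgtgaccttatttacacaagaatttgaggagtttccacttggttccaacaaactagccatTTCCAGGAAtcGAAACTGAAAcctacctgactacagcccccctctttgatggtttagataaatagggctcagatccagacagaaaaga
Irf1: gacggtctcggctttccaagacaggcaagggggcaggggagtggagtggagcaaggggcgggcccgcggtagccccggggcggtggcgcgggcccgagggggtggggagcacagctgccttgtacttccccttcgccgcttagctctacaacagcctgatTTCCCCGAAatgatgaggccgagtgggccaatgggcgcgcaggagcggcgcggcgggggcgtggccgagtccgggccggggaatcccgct
Cxcl10: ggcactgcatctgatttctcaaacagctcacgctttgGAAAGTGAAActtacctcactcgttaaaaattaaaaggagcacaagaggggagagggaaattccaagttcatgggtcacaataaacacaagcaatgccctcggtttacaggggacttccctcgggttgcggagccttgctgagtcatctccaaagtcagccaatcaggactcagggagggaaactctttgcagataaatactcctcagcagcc
B2m: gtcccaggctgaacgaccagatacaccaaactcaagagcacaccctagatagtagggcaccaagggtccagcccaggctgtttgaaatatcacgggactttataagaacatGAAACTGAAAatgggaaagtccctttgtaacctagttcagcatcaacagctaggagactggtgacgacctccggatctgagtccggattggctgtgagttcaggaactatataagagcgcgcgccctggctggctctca

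In Gbp2 the ISRE lay 59 to 50 bases before the start, read on the opposite strand. Irgm1 had 2 ISRE matches that share 4 bases, the first 30 and the second 24 bases before the start. Tgtp1 held a GAS match and an ISRE match close together, whereas the Irf1 window held a GAS match only. In windows from 250 bases before to 50 bases after the start, ISRE was present in 17 of the 30 windows of the interferon list (56.7%), for which 26 of 36 genes had a RefSeq entry. Of the windows of all tested genes with an entry, 379 of 12028 (3.15%) held it, as did 3.44% of all 32851 RefSeq windows. For genes called higher by the rule below, interferon list members among them, it was 81 of 626 windows (12.9%). For those called lower it was 11 of 274 (4.01%). GAS was present in 9 of the 30 interferon list windows, in 6.74% of those of tested genes and in 8.30% of all. Among class I genes 4 of 16 windows held ISRE, and among class II genes 0 of 5. The interferon list was chosen as interferon-stimulated genes, so its share of ISRE describes the list and tests nothing. A match is a description of letters, and these windows leave out more distant elements.

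Against this background, 684 genes rose in tumour cells and 293 fell, at a limma adjusted p under 0.05 and a difference of at least 1 in log2(TPM + 1), the rule by which genes are called here. That is 5.29% and 2.26% of the genes tested, or 7.55% together. Counts of called list members below are to be read against these shares. At adjusted p under 0.05 alone the counts were 2327 and 2358, 36.2% together. All 5 tumour libraries lay above all 3 control libraries for 2500 genes (19.3%) and below them for 2654 (20.5%). Libraries correlated with r of 0.974 to 0.985 among tumours, 0.988 to 0.989 among controls and 0.932 to 0.943 between the groups, each over the tested genes. Every library sums to 1000000 TPM, so sequencing depth is unknown, and a difference on the log2(TPM + 1) scale understates that of genes with few TPM. A gene near 0 in culture was tested only where tumour libraries were high, so it could rise but not fall. Genes at 1 TPM or more numbered 12620.6 ± 132.4 in tumour and 12394 ± 19 in control libraries (exact two-sided permutation p = 0.0357, n = 5 and 3, the smallest that 56 arrangements allow, 0.0446 adjusted over the 5 library measures tested). At 5 TPM the difference was 88.9 genes (exact p = 0.179, n = 5 and 3). Values after ± are SDs over 5 tumour, 5 OT1 or 3 cultured libraries throughout.

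**Figure D1:**
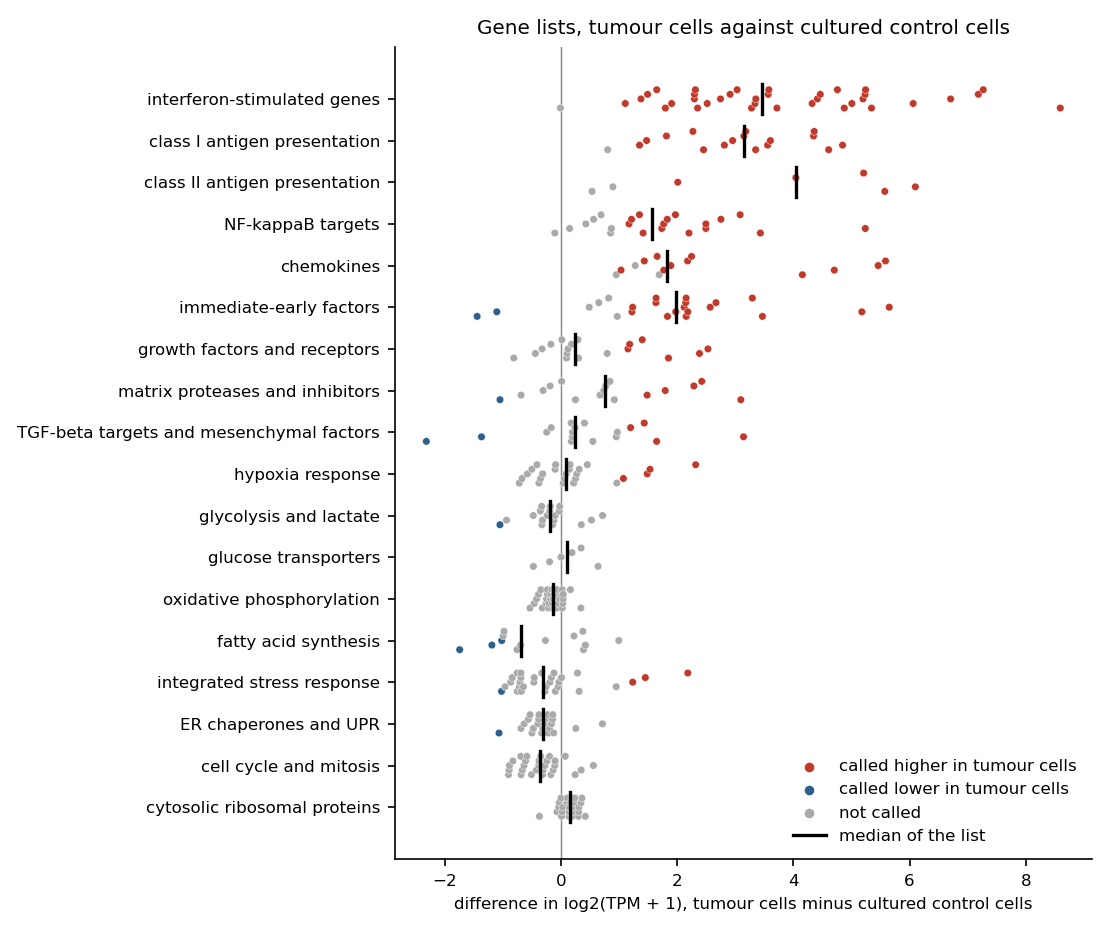
Difference in log2(TPM + 1), tumour minus control cells, for each tested member (points) of 18 gene lists, with the median of each list as a black bar and points coloured by call. Medians of the interferon, antigen presentation, NF-kappaB, chemokine and immediate-early lists are 1.58 to 4.04, while those of the glycolysis, oxidative phosphorylation, cell cycle and ribosomal lists are near 0.

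The sorted cells carried the markers of LLC. Rhox5, a homeobox gene, read 657, 617, 685, 568 and 615 TPM in tumour libraries 1 to 5, against 710.3, 699.5 and 669.96 TPM in control libraries 1 to 3 (log2 -0.14, SE 0.07, limma adjusted p = 0.139). Tm4sf1, a membrane protein of many carcinomas, read 182, 188, 193, 183 and 248 TPM in tumour libraries, against 182, 172 and 193 TPM in control libraries (log2 0.12, SE 0.10, limma adjusted p = 0.406). For these genes the groups were close, and OT1 libraries averaged 44.5 ± 23.9 and 12.2 ± 7.53 TPM (SD, n = 5). Of 12 tested identity genes 2 rose and 0 fell. Krt18, a keratin of simple epithelia, read 79.8, 86, 88.5, 72.2 and 82.4 TPM in tumour libraries, against 6.31, 7.6 and 7.09 TPM in control libraries (log2 3.37, SE 0.09, limma adjusted p = 3.71e-09). Its filament partner Krt8 read 406 ± 37.4 TPM in tumours, against 323 ± 10.00 TPM in controls (log2 0.33, SE 0.08, limma adjusted p = 0.00923), a smaller difference. The chromatin factor Hmga2 read 288 ± 27.4 TPM in tumour and 107 ± 6.13 TPM in control libraries (log2 1.42, SE 0.09, limma adjusted p = 1.47e-06).

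Transcripts of other cells were present at low levels in the tumour libraries. The summed TPM of 15 T cell markers was 11.4 to 26.2 in tumour, 6344 to 10120.2 in OT1 and 7.44 to 8.09 in control libraries. Cd3e, part of the T cell receptor complex, read 0.152, 0.0726, 0, 0.313 and 0.347 TPM in tumour libraries and 0 in each control library, while OT1 cells averaged 549 ± 117 TPM. Ifng, the gene of interferon-gamma itself, read 0, 0, 0, 0 and 0.0974 TPM in tumour libraries, against 232 ± 71.8 TPM in OT1 libraries, and was listed at 0 in each control library. The 20 myeloid markers summed to 91.5, 54.9, 51, 99.4 and 164 TPM in tumour libraries 1 to 5, to 2708 to 17622 TPM in OT1 libraries and to 14.4, 14.8 and 16.2 TPM in control libraries. Of the 13 tested, 11 rose and 0 fell, and with no filter 10 of the 20 rose and 0 fell. Members near 0 in control libraries were tested only through the tumour libraries and could not have fallen. Ptprc, the pan-leukocyte protein CD45, read 1.25, 0.286, 0.278, 1.97 and 1.17 TPM in tumour libraries, against 0, 0 and 0.0338 TPM in control libraries. Lyz2, a lysozyme of macrophages, read 25, 10.8, 7.99, 27 and 47.2 TPM in tumour libraries, against 2.53, 3.03 and 3.47 TPM in control libraries. The keratinocyte keratins Krt5 and Krt14 were listed at 0 in all 8. The share of these cells in the differences below was not tested.

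**Figure D2:**
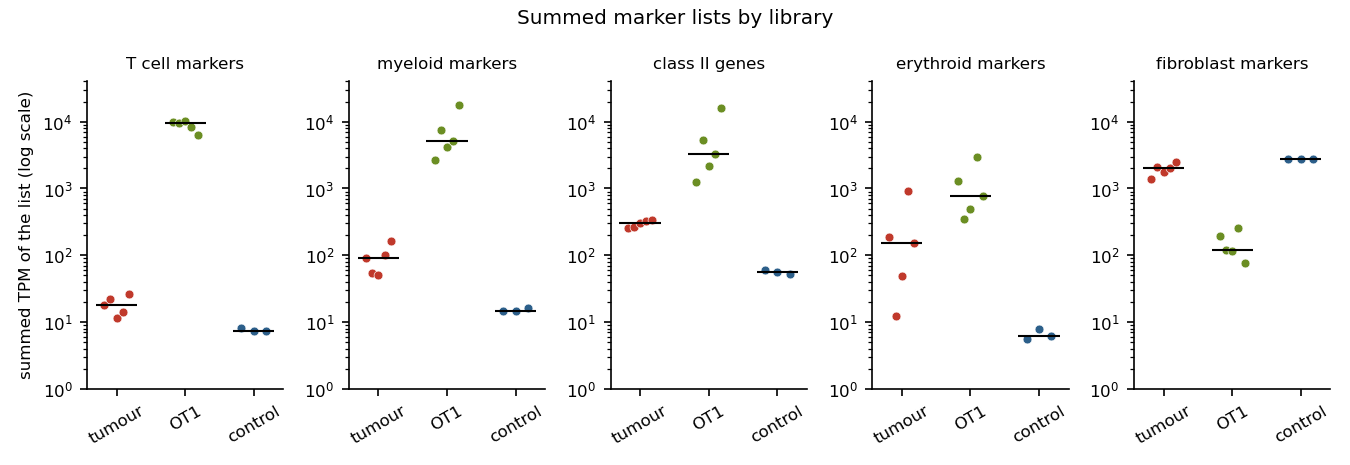
Summed TPM (log axis) of 5 marker lists in each tumour, OT1 and control library (points), with group medians as bars. T cell sums in tumour libraries, 11.4 to 26.2 TPM, lie far below the OT1 libraries and above the controls, and erythroid sums spread from 12.3 to 907 TPM over the tumours.

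Haemoglobin transcripts differed widely between tumours. Hba-a2, an alpha globin, read 71.6, 6.84, 21.3, 378 and 54 TPM in tumour libraries, against 0, 0 and 0.324 TPM in control libraries (log2 5.46, SE 0.97, limma adjusted p = 0.00185). Tumour 4 stood highest and tumour 2 lowest, in Hbb-bs (56.2, 1.71, 14.2, 329 and 41.9 TPM, listed at 0 in each control library) as well. Hba-a1 shares most of its sequence with Hba-a2, so how reads were divided between them is uncertain. The difference in Hba-a2 was log2 4.72, limma adjusted p = 0.000759 without tumour 4 and log2 6.12, limma adjusted p = 0.000466 without tumour 2, and Hba-a1 lost its call without tumour 1 (limma adjusted p = 0.0749), tumour 4, tumour 5 or any 1 control library. Of 8 tested erythroid and platelet markers 3 rose (2 without tumour 1 or tumour 4, 5 without tumour 2) and 0 fell. Alas2, the enzyme of haem synthesis in red cell precursors, read 0.716 to 2.98 TPM in tumour and 0 to 1.49 TPM in control libraries.

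Interferon-stimulated genes were the list with the most members called. Of 36 members, all of them tested, 35 rose and 0 fell, with a median difference of log2 3.46 where the median over all tested genes was -0.02. Ifit2 was the member not called, at 15 ± 2.99 TPM in tumour and 14.9 ± 2.42 TPM in control libraries. The same 35 were above all 12 cultured libraries, TNF-treated ones included, as were 9.57% of tested genes. Those 12 include the 3 controls used in the call, which favours called genes.

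The guanylate-binding proteins, GTPases that attack the vacuoles of intracellular pathogens, were among the genes with the widest differences. Gbp2 (chr3:142620602-142638008 in GENCODE M21 on GRCm38) read 406, 492, 483, 380.3 and 389 TPM in tumour libraries, against 0.0355, 0.102 and 0.196 TPM in control libraries. It had the highest difference of the genes tested (log2 8.59, SE 0.11, limma adjusted p = 3.0e-11, 95% interval 8.35 to 8.83), with every tumour library above 380 TPM and every control library under 0.2 TPM. Gbp3 (164 ± 42.9 TPM in tumours, against 0.112 ± 0.0888 TPM in controls) and Gbp7 (135 ± 26.3 TPM in tumours, against 0.283 ± 0.122 TPM in controls), on chromosome 3 like Gbp2, rose by log2 7.18 and 6.71. OT1 cells held 123 ± 36.3 TPM of Gbp2 and TNF-treated cultures 0.338 ± 0.061 TPM.

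The immunity-related GTPases act on the same vacuoles. Irgm1 read 146, 223, 219, 157 and 146 TPM in tumour libraries, against 7.8, 5.58 and 8.7 TPM in control libraries (log2 4.41, SE 0.18, limma adjusted p = 7.62e-08). Igtp, its relative, averaged 244 ± 39.2 TPM in tumour and 6.58 ± 0.788 TPM in control libraries. Iigp1 (136, 193, 206, 152 and 127 TPM in tumour libraries, against 0, 0 and 0.137 TPM in control libraries) was near 0 in culture and above 120 TPM in each tumour. Tgtp1 and Tgtp2 are near-identical neighbours on chromosome 11 between which reads may be divided arbitrarily, and Tgtp1 was listed at 0 in each control library and at 69.9, 89.5, 88.8, 78.3 and 63.8 TPM in tumour libraries. Zbp1, a sensor of unusual nucleic acids, read 69.6 ± 18.1 TPM in tumour and 0.031 ± 0.0536 TPM in control libraries (log2 6.06, SE 0.19, limma adjusted p = 8.39e-09).

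Transcription factors of the pathway rose too. Irf1 read 143, 178, 191, 163 and 165 TPM in tumour libraries, against 14, 15.5 and 17.1 TPM in control libraries (log2 3.35, SE 0.10, limma adjusted p = 8.39e-09). All 5 tumours were above all 3 controls. Stat2 and Irf9, which act in the type I interferon complex, averaged 92.1 ± 28.8 and 37.3 ± 8.67 TPM in tumours and 16.5 ± 1.4 and 6.67 ± 0.895 TPM in controls. Irf7, the amplifier of type I interferon, averaged 22.8 ± 8.79 TPM in tumours and 0.708 ± 0.168 TPM in controls. Batf2, a partner of IRF1 in macrophages, read 46.3, 67, 85.7, 52.4 and 77.5 TPM in tumour libraries and was listed at 0 in each control library.

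Antiviral effectors are the best known products of type I interferon signalling. Isg15, a ubiquitin-like modifier, read 55.5, 129, 140.00, 72.2 and 49.6 TPM in tumour libraries, against 13.2, 14.9 and 12.3 TPM in control libraries (log2 2.52, SE 0.32, limma adjusted p = 0.00027). Tumours 2 and 3 were the high pair for Isg15, and again for Ifit3 (10.7, 26, 34.2, 16.8 and 13.3 TPM in tumour libraries, against 0.488, 0.73 and 0.698 TPM in control libraries). Mx1, an antiviral dynamin, reached only 1.93 ± 0.946 TPM in tumours and was listed at 0 in each control library. Bst2, which tethers budding virions, was abundant at 698 ± 73.1 TPM in tumours and 103 ± 6.89 TPM in controls. Tumour means exceeded OT1 means for 24 of the 35 interferon-stimulated genes that rose. Over all 684 genes called higher, OT1 means exceeded tumour means for 316 (46.2%). The count of higher tumour means varied between lists, with 6 of 16 class I genes, 5 of 15 NF-kappaB targets and 7 of 11 chemokines that rose.

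Class I antigen presentation followed with 16 of 17 members higher and 0 lower (median log2 3.15), and all 17 above the 12 cultured libraries. H2-K1, the heavy chain that presents the ovalbumin peptide to OT1 cells (chr17:33996017-34000347), read 1974, 2010.1, 2139, 2263 and 2000.1 TPM in tumour libraries, against 66.8, 70.1 and 76.8 TPM in control libraries (log2 4.85, SE 0.07, limma adjusted p = 7.18e-11, 95% interval 4.69 to 5.00). B2m read 3481, 3559, 3243, 3695 and 3269 TPM in tumour libraries, against 450.3, 449 and 432 TPM in control libraries (log2 2.96, SE 0.06, limma adjusted p = 8.77e-10). H2-D1, the other classical heavy chain of this haplotype, read 2612 ± 209.6 TPM in tumour and 369.8 ± 4.18 TPM in control libraries. Heavy chain genes share long stretches of sequence, so values of single members such as H2-Q6 (79 ± 15.5 TPM in tumours, 0.352 ± 0.196 TPM in controls) are less certain than their sum. The class I list as a whole summed to 10003 to 11187 TPM in tumour and 1285 to 1355 TPM in control libraries, and the tumours differed little among themselves.

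The peptide supply moved with the heavy chains. Tap1, a subunit of the peptide pump into the endoplasmic reticulum, read 102, 146, 147, 114 and 127 TPM in tumour libraries, against 9.37, 10.03 and 9.94 TPM in control libraries (log2 3.56, SE 0.12, limma adjusted p = 1.79e-08), whereas its partner Tap2 averaged 118 ± 17.8 TPM in tumours, against 45 ± 1.04 TPM in controls. Psmb8, an immunoproteasome subunit, read 341, 365, 374, 363 and 358 TPM in tumour libraries, against 28.8, 30.9 and 26.4 TPM in control libraries (log2 3.61, SE 0.07, limma adjusted p = 6.04e-10). Psmb9 and Psmb10 averaged 85.1 ± 5.44 and 190.3 ± 13.8 TPM in tumours, against 7.46 ± 1.04 and 20.7 ± 2.91 TPM in controls. Nlrc5, the transactivator of class I genes, read 60.04, 80.2, 86.4, 68.5 and 73.6 TPM in tumour libraries, against 2.2, 2.19 and 1.75 TPM in control libraries (log2 4.61, SE 0.12, limma adjusted p = 3.53e-09). TNF-treated cultures lay between for H2-K1 (230.05 ± 6.64 TPM) and Psmb8 (55.6 ± 2.19 TPM), but close to control for Tap1 (10.3 ± 0.673 TPM), and OT1 cells held 3988 ± 596 TPM of H2-K1.

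**Figure D3:**
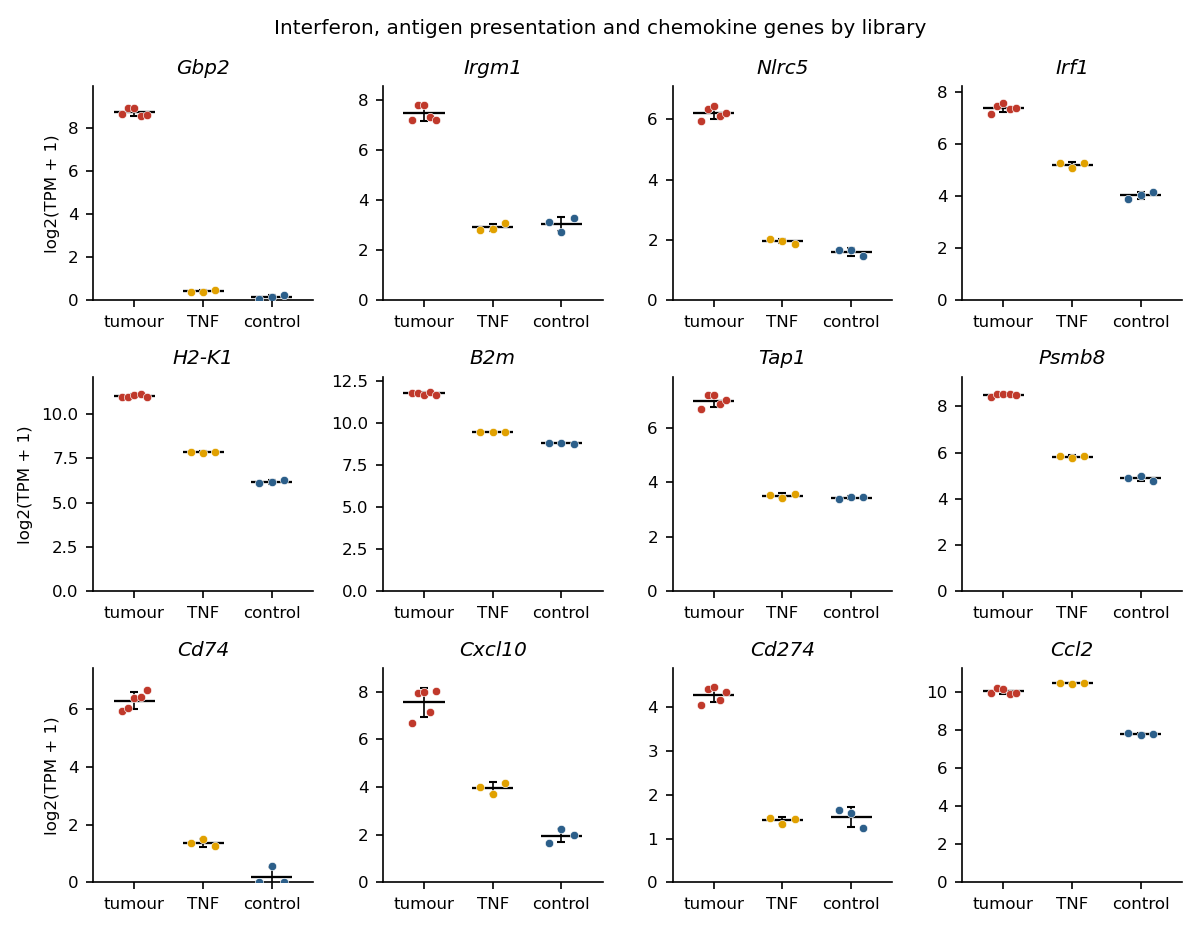
Levels as log2(TPM + 1) of 12 genes in tumour, TNF-treated and control libraries (points), with mean (bar) and SD (whisker) on that scale. For Gbp2, Nlrc5, Tap1 and Cd274 all tumour libraries lie above all TNF-treated and control ones, while Ccl2 is highest in TNF-treated cultures, at 1407 ± 21.1 TPM.

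Class II genes, which present to CD4 T cells and are known to respond to interferon-gamma through CIITA, rose in 5 of 7 members and fell in 0 (median log2 4.04). Cd74, the invariant chain, read 60.3, 65.1, 82.9, 84.4 and 100.1 TPM in tumour libraries, against 0, 0.486 and 0 TPM in control libraries (log2 6.10, SE 0.19, limma adjusted p = 8.59e-09). H2-Eb1 was listed at 0 in each control library and at 41.9, 39.9, 48.6, 57.8 and 46.9 TPM in tumour libraries. Ciita read 2.83, 3.48, 3.41, 3.31 and 2.81 TPM in tumour libraries, against 0.0416, 0.0399 and 0.0128 TPM in control libraries (log2 2.01, SE 0.14, limma adjusted p = 4.67e-06). Myeloid cells also make these genes, and OT1 libraries, in which myeloid markers summed to over 2700 TPM, averaged 2167 ± 2370.3 TPM of Cd74. The 4 genes Cd74, H2-Aa, H2-Ab1 and H2-Eb1 together made 1.99, 3.3, 4.27, 2.39 and 1.48 TPM for each TPM of myeloid markers in tumour libraries 1 to 5, against 0.432 to 0.89 in OT1 libraries and 0.106 to 0.236 in control libraries. The sum of the 4 genes itself was 182, 181, 218, 237 and 244 TPM in tumour libraries 1 to 5, and tumour 5, highest in it, also had the highest myeloid sum. The part of myeloid cells in the tumour values was not tested.

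Genes of checkpoint ligands, death receptors and apoptosis were measured in the same libraries. Of 9 tested checkpoint ligands and modulators 6 rose and 0 fell. Cd274, which encodes the checkpoint ligand PD-L1, read 15.7, 20.4, 21, 17 and 19.4 TPM in tumour libraries, against 2.14, 2.01 and 1.36 TPM in control libraries (log2 2.80, SE 0.14, limma adjusted p = 2.97e-07). Its relative Pdcd1lg2 stayed at 0.0566 to 0.197 TPM in tumours and was not tested. The death receptor Fas read 4.71, 6.22, 3.71, 2.96 and 3.77 TPM in tumour libraries, against 0, 0.305 and 0.195 TPM in control libraries (log2 2.15, SE 0.21, limma adjusted p = 3.83e-05), and TNF-treated cultures held 8.99, 10.3 and 8.19 TPM. Tnfsf10, the death ligand TRAIL, averaged 10.9 ± 2.16 TPM in tumour, 0.0319 ± 0.0158 TPM in TNF-treated and 0.144 ± 0.17 TPM in control cells. Among 23 tested death receptor and apoptosis genes 4 rose and 0 fell, including the inflammatory caspases Casp4 (19.2 ± 1.22 TPM in tumours, against 2.2 ± 0.503 TPM in controls) and Casp1 (46.8 ± 3.63 TPM in tumours, against 9.04 ± 0.187 TPM in controls). Casp8, the initiator caspase of that pathway, read 35 ± 4.85 TPM in tumours and 47.4 ± 3.2 TPM in controls and was not called (log2 -0.43, SE 0.11, limma adjusted p = 0.0121). The myeloid sums given above stand beside these counts, since Casp1, Casp4 and Cd274 are also expressed by macrophages.

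Chemokines rose in 11 of 14 tested members and fell in 0 (median log2 1.83), and all 14 were above the 3 controls. The ligands of CXCR3, the receptor of effector T cells, were close to absent from culture. Cxcl10 read 101, 242, 250.5, 141 and 258 TPM in tumour libraries, against 2.15, 3.69 and 3.02 TPM in control libraries (log2 5.59, SE 0.30, limma adjusted p = 6.02e-07), and Cxcl9 was listed at 0 in each control library and at 13.9, 18.1, 19.9, 15 and 17.8 TPM in tumour libraries. Cxcl9 averaged 0 TPM in TNF-treated cultures too, whereas Cxcl10 averaged 14.7 ± 2.53 TPM there. Neutrophil attractants were high as well. Cxcl1 read 339, 309, 262, 249 and 186 TPM in tumour libraries, against 11.2, 8.34 and 8.19 TPM in control libraries (log2 4.71, SE 0.18, limma adjusted p = 4.45e-08), and Cxcl2 averaged 150.01 ± 34.2 TPM in tumours, against 2.5 ± 1.24 TPM in controls. Ccl2, a monocyte attractant, was abundant in both groups at 1044 ± 93 TPM in tumours and 218 ± 6.82 TPM in controls (log2 2.25, SE 0.08, limma adjusted p = 2.01e-08). Csf1, the growth factor of macrophages, averaged 302 ± 60.6 TPM in tumours and 109 ± 3.24 TPM in controls. Ccl5, which T cells make at 1178 ± 654 TPM in the OT1 libraries, reached 3.11, 5.65, 5.73, 5.57 and 7.5 TPM in tumours and 0.629, 0.305 and 0.29 TPM in controls.

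NF-kappaB targets rose in 15 of 22 tested members and fell in 0 (median log2 1.58). The inhibitors that the pathway induces against itself were among them. Nfkbia read 255, 258, 258, 207 and 278 TPM in tumour libraries, against 49.5, 42.9 and 38.8 TPM in control libraries (log2 2.50, SE 0.11, limma adjusted p = 1.08e-07), and TNF-treated cultures averaged 335 ± 12 TPM. Tnfaip3, the ubiquitin editor A20, averaged 8.68 ± 1.89 TPM in tumours, 10.7 ± 0.643 TPM with TNF and 1.87 ± 0.188 TPM in controls. Relb, a subunit of the alternative branch, averaged 17.6 ± 2.7 TPM in tumours, 30.5 ± 1.71 TPM with TNF and 4.22 ± 0.686 TPM in controls. Above all 12 cultured libraries lay 6 of the 22 members. The complement factor C3 read 22.4, 59.5, 36.3, 54.2 and 59.5 TPM in tumour libraries, against 0.163, 0.267 and 0.121 TPM in control libraries (log2 5.24, SE 0.29, limma adjusted p = 6.97e-07), with 36 ± 0.453 TPM after TNF. Bcl3, a co-activator, averaged 28 ± 6.53 TPM in tumours, above 7.68 ± 0.399 TPM with TNF and 1.68 ± 0.682 TPM in controls. Tnf and Il6 were under the filter and not tested.

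Immediate-early genes, which cells induce within minutes of growth factor, stress or handling, rose in 17 of 23 tested members and fell in 2. Fosb read 57.1, 98, 50.1, 122 and 48.7 TPM in tumour libraries, against 0.329, 0.443 and 0.468 TPM in control libraries (log2 5.65, SE 0.29, limma adjusted p = 3.94e-07). Fos read 27.7, 62.2, 21.8, 86.1 and 33.6 TPM in tumour libraries, against 0.0868, 0.125 and 0.24 TPM in control libraries (log2 5.18, SE 0.38, limma adjusted p = 6.57e-06). Tumours 2 and 4 were the highest for both AP-1 genes. Junb and Jun averaged 276 ± 31.3 and 305 ± 54.6 TPM in tumours, against 27.1 ± 2.53 and 68.4 ± 3.52 TPM in controls. Egr1, a zinc finger factor, averaged 3.41 ± 2.13 TPM in tumours and 0.0184 ± 0.032 TPM in controls, and its relative Egr3 fell (1.59 ± 0.441 TPM in tumours, against 5.99 ± 0.759 TPM in controls, log2 -1.44, SE 0.17, limma adjusted p = 0.000132). The ERK phosphatase Dusp6 fell too, at 111 ± 13.9 TPM in tumours and 237 ± 4.21 TPM in controls, while Dusp1 rose to 57.4 ± 23.3 TPM in tumours, against 8.16 ± 0.385 TPM in controls. Myc read 904, 1089, 1131, 610.1 and 835 TPM in tumour libraries, against 388, 391 and 358 TPM in control libraries (log2 1.24, SE 0.17, limma adjusted p = 0.000461). Among heat shock chaperones 2 of 19 rose, the inducible pair Hspa1b (29.2, 32.3, 29.9, 51.5 and 10.7 TPM in tumour libraries, against 8.92, 6.1 and 6.78 TPM in control libraries) and Hspa1a, whose coding sequences are near-identical. Hspa8, the constitutive chaperone, averaged 3152 ± 128 TPM in tumours and 3095 ± 304 TPM in controls. Enzymatic dissociation and sorting, which only the tumour cells underwent, are known inducers of these 2 lists, and their part cannot be told apart from the rest.

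Few genes of glucose metabolism, the subject of the series, passed the call. Of 18 tested glycolysis and lactate genes 0 rose and 1 fell, while 7 were lower and 2 higher at limma adjusted p under 0.05 alone, by which 18.2% of all tested genes were lower. Of 6 glucose transporters none was called (1 higher and 0 lower at limma adjusted p under 0.05 alone), and of 5 MondoA glucose-sensing genes likewise none. Slc2a1, which encodes GLUT1 (chr4:119108711-119137983), read 145, 135, 159.99, 97.3 and 82.2 TPM in tumour libraries, against 75.4, 80.3 and 74.6 TPM in control libraries (log2 0.64, SE 0.20, limma adjusted p = 0.0275, 95% interval 0.21 to 1.08). All 5 tumours were above the controls, tumours 4 and 5 by little. As a share of summed Slc2a TPM it was 91.4, 88.9, 90.01, 87.7 and 79.5% in tumour libraries, against 78.8, 81.5 and 78.7% in control libraries (exact two-sided permutation p = 0.0714, also after adjustment over 5 measures). The other 4 tumours were above the control range and tumour 5 was inside it. Slc2a3, the transporter of neurons and lymphocytes, averaged 4.27 ± 1.07 TPM in tumours and 4.21 ± 0.617 TPM in controls. Txnip, an inhibitor of glucose uptake that the MondoA factor induces when glucose is plentiful, read 54.5, 28.4, 54, 65.8 and 33.6 TPM in tumour libraries, against 43, 43.1 and 44.2 TPM in control libraries (log2 0.05, SE 0.24, limma adjusted p = 0.887). For comparison, BAY-876 cultures held 0.491 ± 0.177 TPM.

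Among enzymes, Hk2, the inducible hexokinase, averaged 50.7 ± 8.1 TPM in tumours and 34.5 ± 1.04 TPM in controls (log2 0.53, SE 0.13, limma adjusted p = 0.00921). Its share of Hk1 plus Hk2 was 43.3 ± 2.54% in tumours and 34.2 ± 1.2% in controls (SD, n = 5 and 3, exact permutation p = 0.0357, 0.0446 adjusted over 5 measures, higher in 5 of 5). Ldhb, the heart-type lactate dehydrogenase, fell to 8.49, 6.43, 5.6, 7.7 and 8.62 TPM in tumour libraries, against 14.4, 16.5 and 17.7 TPM in control libraries (log2 -1.05, SE 0.15, limma adjusted p = 0.000421). It dropped under the size threshold without tumour 3 or control 3 (log2 -0.97, limma adjusted p = 0.000723 and log2 -0.98, limma adjusted p = 0.00375). Ldha averaged 1305 ± 108 TPM in tumours and 1532 ± 17.3 TPM in controls and made up 99.4 ± 0.132% of the pair in tumours, against 99 ± 0.1% in controls (exact permutation p = 0.0357, n = 5 and 3, 0.0446 adjusted). Pkm, pyruvate kinase, averaged 2553 ± 203 TPM in tumours and 3203 ± 65.6 TPM in controls, lower at limma adjusted p = 0.00672 but by only log2 -0.33.

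Hypoxia response genes, targets of HIF factors in tumours that outgrow their vessels, rose in 4 of 25 tested members and fell in 0. At limma adjusted p under 0.05 alone 7 were higher and 5 lower, and the list median was log2 0.09. The list summed to 2330, 2235, 2403, 1740 and 1645 TPM in tumour libraries 1 to 5, against 1837, 1880 and 1855 TPM in control libraries. The list thus showed no general increase. Hilpda, a lipid droplet protein, read 173, 137, 128, 73.1 and 63.9 TPM in tumour libraries, against 20.8, 19.9 and 21.5 TPM in control libraries (log2 2.32, SE 0.29, limma adjusted p = 0.000226). Ndrg1 and Bhlhe40 averaged 102 ± 31.9 and 21.6 ± 5.02 TPM in tumours, against 34.3 ± 0.479 and 6.66 ± 0.562 TPM in controls, and the fourth was Ero1l. Vegfa, the vessel growth factor, read 140.4, 112, 138, 80.7 and 51.3 TPM in tumour libraries, against 86.8, 86 and 90.1 TPM in control libraries (log2 0.16, SE 0.29, limma adjusted p = 0.696). Tumours 1 to 3 were above the controls and tumours 4 and 5 below them. Car9, a carbonic anhydrase that marks hypoxia in many tumours, was under 5 TPM in every library of both groups.

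**Figure D4:**
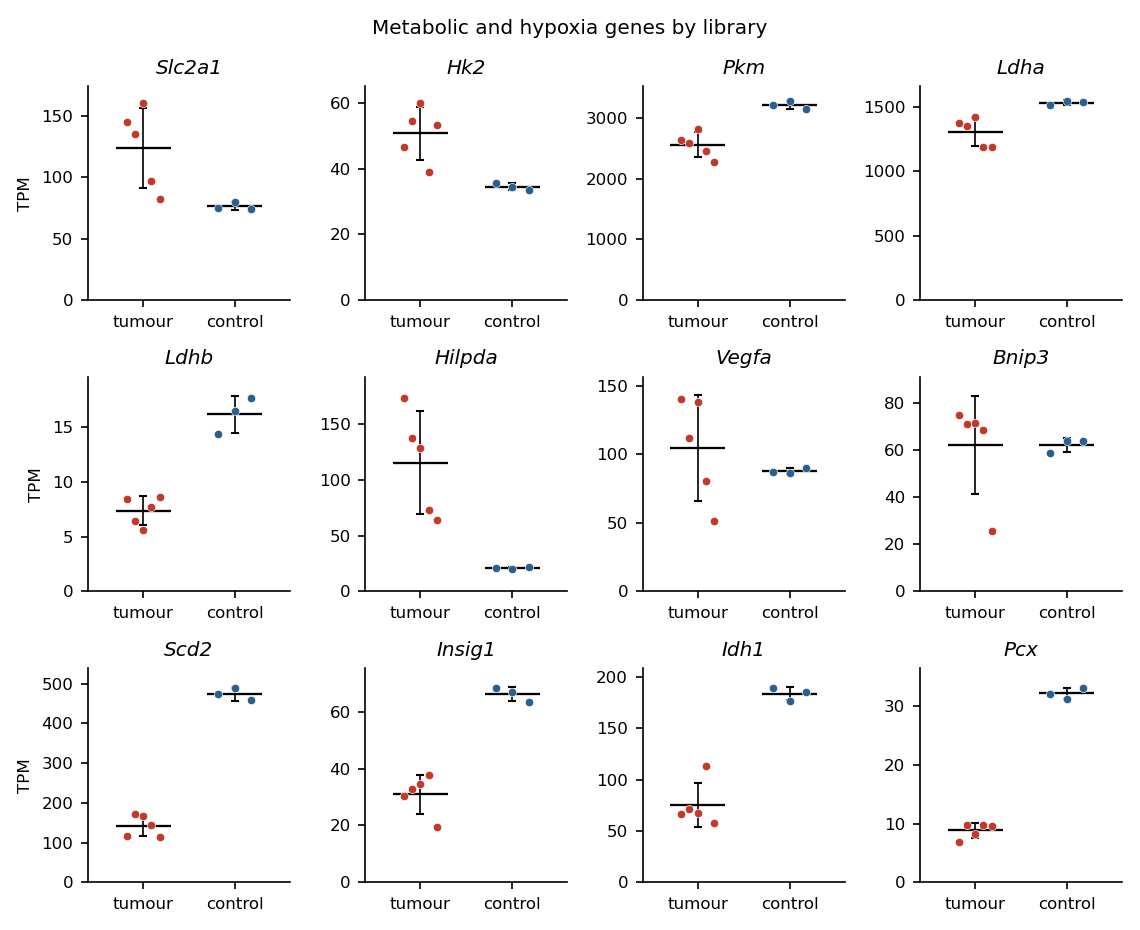
TPM of 12 metabolic and hypoxia genes in tumour and control libraries (points), with mean (bar) and SD (whisker). Slc2a1, Hilpda and Vegfa spread widely over the 5 tumours, whereas Scd2, Idh1 and Pcx in the tumours are all below the controls.

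Called genes of the fatty acid, cholesterol and TCA cycle lists were lower in tumours, but in the cholesterol list this was 1 gene of 24. In the sterol export list 1 of 4 rose, the lipid carrier Apoe described below. Of 13 fatty acid synthesis genes 3 fell, the desaturases Scd1, Scd2 and Fads2, and 0 rose, while 5 fell without tumour 2 or tumour 3 and 2 without tumour 1. Scd2 read 117, 171, 166, 145 and 115 TPM in tumour libraries, against 473, 489.7 and 457 TPM in control libraries (log2 -1.74, SE 0.14, limma adjusted p = 9.35e-06). Scd1, at 56.6 ± 9.68 TPM in tumours, against 114 ± 4.06 TPM in controls, was near the size threshold and lost its call without tumour 1 (log2 -0.95, limma adjusted p = 0.000283), tumour 5 (log2 -0.98, limma adjusted p = 0.000393) or control 3 (log2 -0.99, limma adjusted p = 0.00179). Fasn, fatty acid synthase, averaged 178 ± 30.02 TPM in tumours and 87.4 ± 1.11 TPM in controls, a difference just short of the threshold (log2 1.00, SE 0.13, limma adjusted p = 0.000269) and opposite in sign to the desaturases. It passed without tumour 1 (log2 1.08, limma adjusted p = 0.000111), tumour 4, control 1 or control 2. At limma adjusted p under 0.05 alone 8 fatty acid genes were lower and 4 higher, where 18.2% of all tested genes were lower. The cholesterol list had 0 higher and 1 lower of 24, the SREBP retention protein Insig1 (30.4, 32.7, 34.4, 37.6 and 19.4 TPM in tumour libraries, against 68.2, 66.9 and 63.5 TPM in control libraries). Without tumour 5 Insig1 was not called (log2 -0.95, limma adjusted p = 4.28e-05). By adjusted p under 0.05 alone 4 cholesterol genes were lower and 5 higher, and the list median was log2 0.03, so the list showed no general decrease. Of 22 genes of the TCA cycle list 2 fell, and neither encodes an enzyme of the cycle itself. They were the cytosolic NADP isocitrate dehydrogenase Idh1 (66.2, 71.1, 67.7, 113 and 57.8 TPM in tumour libraries, against 189, 176 and 186 TPM in control libraries) and pyruvate carboxylase Pcx (6.88, 9.83, 8.23, 9.78 and 9.68 TPM in tumour libraries, against 32.1, 31.3 and 33.1 TPM in control libraries). All 5 tumours were below all 3 controls for both, and Idh1 averaged 66 ± 5.47 TPM in TNF-treated cultures. By adjusted p under 0.05 alone 7 genes of the TCA cycle list were lower and 2 higher.

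Integrated stress response genes, most of them targets of ATF4, rose in 3 of 30 and fell in 1 (0 to 3 when single libraries were left out). Those that rose were Atf3 (19.5 ± 3.3 TPM in tumours, against 3.48 ± 0.472 TPM in controls), Gdf15 (12.9 ± 4.37 TPM in tumours, against 3.89 ± 0.543 TPM in controls) and the eIF2alpha phosphatase subunit Ppp1r15a (30.2 ± 4.53 TPM in tumours, against 12.2 ± 0.979 TPM in controls), and alanine aminotransferase Gpt2 fell. At limma adjusted p under 0.05 alone 11 of the 30 were lower and 4 higher, where 18.2% of all tested genes were lower. The list median was log2 -0.30. Atf4 itself averaged 550.4 ± 99 TPM in tumours and 556 ± 10.9 TPM in controls. Asparagine synthetase Asns read 244, 186, 194, 117 and 122 TPM in tumour libraries, against 259.7, 272 and 266 TPM in control libraries, with tumours 4 and 5 lowest. Endoplasmic reticulum chaperones had 0 higher and 1 lower of 23, the stress sensor Ern1 (32.1 ± 4.42 TPM in tumours, against 67.8 ± 2.65 TPM in controls). At limma adjusted p under 0.05 alone 14 were lower and 1 higher, where 18.2% of all tested genes were lower. Among antioxidant genes, haem oxygenase Hmox1 read 264, 159, 259.7, 85.5 and 32.6 TPM in tumour libraries, against 26.2, 26.4 and 27.1 TPM in control libraries (log2 2.20, SE 0.58, limma adjusted p = 0.0149). Tumour 5 was closest to the controls and tumours 1 and 3 were highest. Gpx1, a glutathione peroxidase, rose to 448 ± 20.8 TPM in tumours, against 202 ± 7.21 TPM in controls, and the glutathione transferases Gstm1 (46.6 ± 5.79 TPM in tumours, against 136 ± 3.51 TPM in controls) and Gsta4 (32.4 ± 6.08 TPM in tumours, against 75.1 ± 5.4 TPM in controls) fell.

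Respiratory chain subunits come from nuclear and mitochondrial genes. Of 36 nuclear genes of oxidative phosphorylation none was called, while 10 were lower and 1 higher at limma adjusted p under 0.05 alone. By that rule 18.2% of all tested genes were lower. Of the 13 mRNAs of the mitochondrial genome, listed after their values had been seen, 7 fell and 0 rose. These were all 7 subunits of complex I encoded there. The transcript mt-Nd2 read 961, 921, 775, 1139 and 1001 TPM in tumour libraries, against 3927, 3839 and 3785 TPM in control libraries (log2 -2.01, SE 0.11, limma adjusted p = 4.96e-07). The 6 other mRNAs were not called and differed among themselves. Of complex IV, mt-Co2 was at log2 -1.65 (limma adjusted p = 0.131) and mt-Co3 at log2 0.68 (limma adjusted p = 0.00715). The ATP synthase transcripts mt-Atp6 and mt-Atp8 were at log2 -1.37 and -0.37 (limma adjusted p = 0.0506 and 0.0433), and mt-Cytb of complex III at log2 -0.50 (limma adjusted p = 0.012). The cytochrome oxidase transcript mt-Co1 read 12153, 11555, 10147, 17816 and 10604 TPM in tumour libraries, against 13569, 13459 and 13158 TPM in control libraries (log2 -0.14, SE 0.16, limma adjusted p = 0.54). Mitochondrial transcripts took 3.92 ± 0.756% of TPM in tumours and 6.17 ± 0.0339% in controls (SD, n = 5 and 3, exact permutation p = 0.0357, 0.0446 adjusted, lower in 5 of 5). Nuclear copies and overlapping genes make the division of reads among these transcripts uncertain.

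Matrix and invasion genes changed in both directions. Of 16 tested proteases and inhibitors 5 rose and 1 fell, the stromelysin Mmp3, whose call was lost without any 1 library other than tumour 2. Plaur, the urokinase receptor, read 118, 139.7, 143, 82.3 and 187 TPM in tumour libraries, against 23.2, 22.5 and 24.2 TPM in control libraries (log2 2.42, SE 0.21, limma adjusted p = 1.83e-05), and its ligand Plau averaged 80.4 ± 20.6 TPM in tumours, against 21.8 ± 0.785 TPM in controls. Mmp9, a gelatinase, averaged 5.64 ± 1.27 TPM in tumours, 34.2 ± 2.22 TPM in TNF-treated and 0.342 ± 0.0913 TPM in control cells. Of 17 TGF-beta targets and mesenchymal factors 4 rose and 2 fell. Snai2, the transcription factor Slug, fell to 9.6, 8.69, 9.91, 7.88 and 8.45 TPM in tumour libraries, against 47.1, 49.1 and 48.3 TPM in control libraries (log2 -2.31, SE 0.09, limma adjusted p = 6.54e-08), and Sparc, a matrix glycoprotein, fell to 170.4 ± 77.7 TPM in tumours, against 407 ± 14.8 TPM in controls. Growth factors had 6 higher and 0 lower of 18, led by Hbegf (35.9 ± 9.8 TPM in tumours, against 5.2 ± 0.306 TPM in controls) and Pdgfa (12.5 ± 3.34 TPM in tumours, against 1.53 ± 0.243 TPM in controls). Tumour means of all 6 exceeded the OT1 means, where OT1 means were the higher for 46.2% of all genes that rose.

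Collagen and fibroblast markers were split. Of 18 tested 7 rose and 1 fell (0 to 2 when single libraries were left out), though cultured LLC cells already held more of the list in sum (2726 to 2804 TPM) than tumours (1407 to 2452 TPM). Without tumour 1 10 rose, and without tumour 2 or tumour 3 5 of 15 tested. The median of log2 1.38 was then 0.25 without tumour 2 and 0.28 without tumour 3. Dcn, decorin, read 23.7, 46.1, 25.5, 38.3 and 50.5 TPM in tumour libraries, against 0.43, 1.24 and 0.644 TPM in control libraries (log2 4.38, SE 0.26, limma adjusted p = 1.24e-06). Col1a1 read 4.88, 114, 22.6, 3.09 and 102 TPM in tumour libraries, against 0.197, 0.229 and 0.143 TPM in control libraries (log2 4.29, SE 1.04, limma adjusted p = 0.00979), and tumours 2 and 5 held over 100 TPM while tumours 1 and 4 held under 5. Without tumour 4 the difference was log2 4.91, limma adjusted p = 0.00336. Col3a1, by contrast, read 255, 475, 324, 507 and 561 TPM in tumour libraries, against 789.96, 811 and 815 TPM in control libraries (log2 -0.98, SE 0.23, limma adjusted p = 0.0077), and it passed the size threshold without tumour 2, tumour 4 or tumour 5 (log2 -1.10, limma adjusted p = 0.00334). Pdgfra, a receptor of fibroblasts, averaged 26.7 ± 8.54 TPM in tumours and 46.1 ± 1.56 TPM in controls. Endothelial markers had no member called of 5 tested, with Cdh5 at 0.242 to 2.84 TPM in tumours.

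Outside the lists, the genes of lowest difference included S100a4, a calcium-binding protein of motile cells. It read 1416, 1245, 1364, 2275 and 1483 TPM in tumour libraries, against 6195, 5951 and 6498 TPM in control libraries (log2 -2.03, SE 0.17, limma adjusted p = 1.22e-05). Cultures with TNF held 1397 ± 69.5 TPM and those with BAY-876 6618 ± 144 TPM, and the TNF mean lies within the range of the tumours. Thbs1, the matrix protein thrombospondin 1, read 5.2, 3.47, 2.09, 3.71 and 6.03 TPM in tumour libraries, against 23.4, 22.9 and 21 TPM in control libraries, and TNF-treated cultures 0.907 ± 0.161 TPM. Scara5, a ferritin receptor, differed more on the log2 scale (2.01 ± 0.873 TPM in tumours, 1.77 ± 0.5 TPM with TNF, 16.2 ± 0.396 TPM in controls, log2 -2.57). Peg10, an imprinted gene derived from a retrotransposon, averaged 11.4 ± 2.94 TPM in tumours and 55.1 ± 1.02 TPM in controls. Rab26os, a non-coding RNA, averaged 12.7 ± 3.37 TPM in tumours, 59.9 ± 4.55 TPM with TNF and 57.8 ± 5.53 TPM in controls. TNF levels are given here for S100a4, Thbs1, Scara5 and Rab26os alone, and no general pattern is read from them. In all, 88 of the 293 genes that fell were below all 12 cultured libraries, and 534 of the 684 that rose were above them. Over all tested genes 3.52% were below and 9.57% above. The 12 include the 3 controls used in the call, from which 280 and 666 of the called genes were already separate. Called genes are thus favoured in such a count, and no excess is read from it.

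Many proliferation genes were lower by small amounts. None of 28 cell cycle or 24 DNA replication genes was called. At limma adjusted p under 0.05 alone 18 and 8 were lower, and 2 and 1 higher. By that rule 18.2% of all tested genes were lower, and an excess over that share was not tested. Mki67, a marker of cycling cells, read 51.8, 52, 50.4, 62.8 and 59 TPM in tumour libraries, against 98.4, 98.1 and 98 TPM in control libraries (log2 -0.82, SE 0.09, limma adjusted p = 6.41e-05), with no overlap. Cdk1 averaged 328 ± 15.6 TPM in tumours and 439.5 ± 14.3 TPM in controls. Pcna, a replication clamp, averaged 356 ± 21.2 TPM in tumours and 359.7 ± 12.5 TPM in controls (log2 -0.02, SE 0.07, limma adjusted p = 0.87). The inhibitor Cdkn1a, p21, rose to 36.4, 35.7, 35.9, 19.1 and 21.5 TPM in tumour libraries, against 12, 10.4 and 12.6 TPM in control libraries (log2 1.23, SE 0.22, limma adjusted p = 0.00194), and Sesn1, another p53 target, fell to 7.23 ± 1.59 TPM in tumours, against 21.8 ± 2.5 TPM in controls. Cytosolic ribosomal proteins had no member called of 26, with a median of log2 0.16.

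The 5 tumour libraries were not alike. Over the tested genes the median SD of log2(TPM + 1) was 0.188 among tumour libraries and 0.0937 among control libraries. Whether this spread lay between tumours or arose in sorting and library preparation was not tested. Apoe, a lipid carrier that macrophages make in quantity, read 20.8, 38.1, 28.1, 26.7 and 251 TPM in tumour libraries, against 4.93, 5.8 and 7.18 TPM in control libraries (log2 2.69, SE 0.67, limma adjusted p = 0.0112). Tumour 5 stood far above the others and also had the highest myeloid sum, 164 TPM, and without it the difference was smaller (log2 2.06, limma adjusted p = 5.84e-05). Bnip3, a mitophagy receptor and hypoxia gene, read 75, 71.1, 71.6, 68.7 and 25.5 TPM in tumour libraries, against 58.8, 63.8 and 64 TPM in control libraries. Here tumour 5 alone was below the controls, as it was lowest in Vegfa, Hilpda and Slc2a1. Tumour 4, with the most globin, was highest in S100a4, Idh1 and Pdgfra among the tumours.

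**Figure D5:**
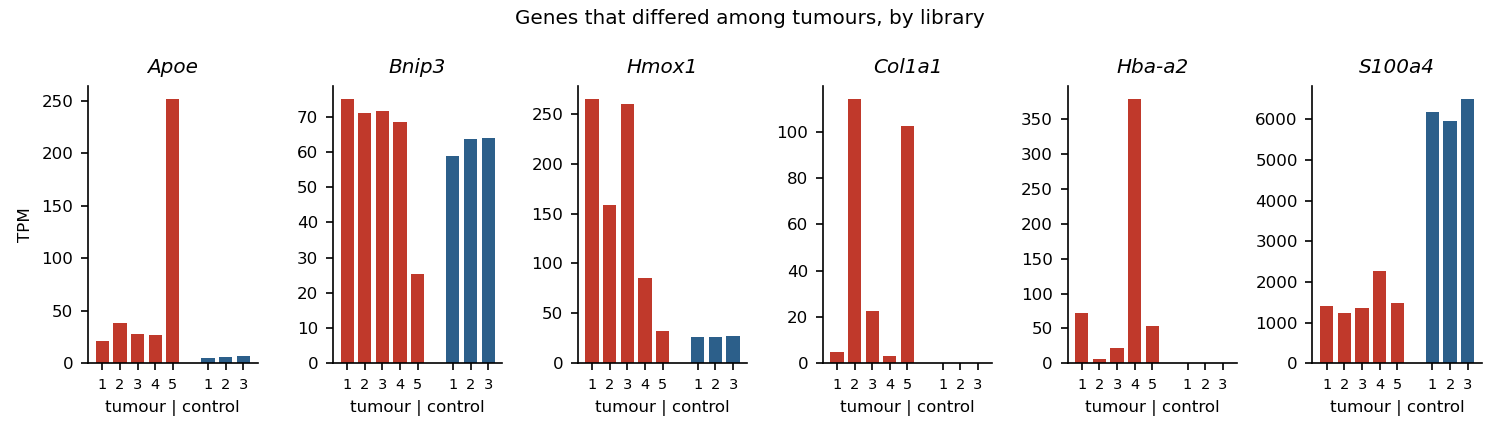
TPM of 6 genes in tumour libraries 1 to 5 and control libraries 1 to 3 (bars from 0). Apoe is highest and Bnip3 lowest in tumour 5, Col1a1 is high in tumours 2 and 5, and Hba-a2 is highest in tumour 4.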

How the data were processed

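RNA was made into libraries with the SMARTER mRNA-Seq kit from Trizol-extracted RNA, per the labels' protocols. The authors deposited TPM values per gene, one table for the sorted cells and one for the 32 h cultures. STAR 2.6.1d, Salmon 0.13.1, DESeq2 1.34.0 and the build mm10 are listed in the submitters' processing notes with no role given. The authors' deposited normalized counts, a signal for vehicle cells of another culture experiment, were read and none is printed. The mapped columns left 24 further TPM columns that name no sample in hand, and these were not used.

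Both tables were joined by gene symbol. Values were taken to log2(TPM + 1) and fitted with limma 3.58.1 in R 4.3.3, with a mean-variance trend, the 2 groups only, and Benjamini-Hochberg adjustment over the 12941 genes with 1 TPM or more in at least 3 of the 8 libraries. Called genes had an adjusted p under 0.05 and a log2 difference of at least 1. The tables were normalized separately, but each library sums to 1000000 TPM over the same genes. Library shares were tested with exact two-sided permutation tests (SciPy 1.17.1). The fit was tested on simulated data made from the real means and spreads. Groups follow the labels, and replicate numbers were not used as pairs.

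The comparison, its members and the 48 gene lists were chosen with earlier results of these data known. Named genes were the 12 highest and 12 lowest called genes without overlap and with a mean of 10 TPM or more in the higher group, marked key genes of each list, and the 3 called members of each list with the smallest p and a mean of 5 TPM or more. Other list members are named as examples chosen after their values were seen. Alternatives changed the pseudocount, filter, scaling, fit, block and libraries. Gene positions are from GENCODE M21 and promoters from RefSeq. Some named genes are not reported here.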

Additional observations from a re-analysis of the deposited data

Results flagged for a closer look

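Of 171 values tried among the 5 tumour libraries, 19 had 1 library whose gap to the nearest other exceeded 0.71 of the range, Dixon's limit for 5 samples. Chance flags about 1 in 20. Library 4 was the one apart in 9 of them, library 5 in 8 and library 1 in 2.

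Tumour 4 was the highest of the 5 for Hba-a2 (378 TPM, others 6.84 to 71.6 TPM), Hbb-bs (329 TPM, others 1.71 to 56.2 TPM) and Lum (39.8 TPM, others 20.5 to 24.5 TPM). It was also the highest for Hba-a1 (151 TPM, others 0.756 to 42 TPM), Pdgfra (41.5 TPM, others 20.5 to 26.2 TPM) and Idh1 (113 TPM, others 57.8 to 71.1 TPM). It was also the highest for S100a4 (2275 TPM, others 1245 to 1483 TPM). Tumour 4 was the lowest of the 5 for Phgdh (342 TPM, others 432 to 468 TPM) and Idh2 (90.5 TPM, others 99.9 to 103 TPM). Tumour 5 was the highest of the 5 for Apoe (251 TPM, others 20.8 to 38.1 TPM), Laptm5 (15.6 TPM, others 8.84 to 10.8 TPM) and Krt8 (470.2 TPM, others 376 to 403 TPM). It was also the highest for Actb (3654 TPM, others 2161 to 2584 TPM) and Tm4sf1 (248 TPM, others 182 to 193 TPM). Tumour 5 was the lowest of the 5 for Casp1 (40.6 TPM, others 47.6 to 49.8 TPM), Ppp1r15a (22.3 TPM, others 31.2 to 33.6 TPM) and Bnip3 (25.5 TPM, others 68.7 to 75 TPM). Tumour 1 was the highest of the 5 for Klra4 (11.8 TPM, others 8.62 to 9.05 TPM). Tumour 1 was the lowest of the 5 for H2-D1 (2246 TPM, others 2644 to 2748 TPM).

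Results for globin genes stood highest in tumour 4 and those for Apoe in tumour 5, the library with the highest myeloid sum. Whether cell content plays a part was not tested.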

How the results depend on the processing

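With a pseudocount of 0.1 TPM 876 genes were called higher and 448 lower, where 684 and 293 were reported. Requiring a mean of 5 TPM left 451 higher and 174 lower, and testing against a log2 difference of 1 left 279 and 51, the first from fewer genes tested and the second from a stricter criterion. Leaving out single libraries gave 647 to 709 higher and 255 to 323 lower. No filter, quantile normalization, median-ratio scaling, rescaling without mitochondrial and ribosomal protein genes, all 12 cultured libraries and no trend gave 594 to 762 higher and 280 to 369 lower, and rescaling over both tables changed no count. Higher calls made up 70.0% of all calls, 61.7% with quantile normalization and 84.5% when testing against a log2 difference of 1.

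The replicate block gave 688 higher and 382 lower, of which 624 and 281 were among those reported. Deviations of same-numbered libraries correlated at 0.035, 0.104 and -0.007, so the numbers do not pair the libraries.

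Without single libraries the exact tests cannot reach 0.05 (smallest p 0.0571 or 0.0952), which says nothing about stability. Differences then ranged from 176.8 to 267.2 genes detected, 8.485 to 9.892 percentage points for the Hk2 share, 0.4286 to 0.5286 for the Ldha share, 6.864 to 9.837 for the Slc2a1 share and -2.567 to -2.069 for the mitochondrial share. At 5 TPM the difference in genes detected was 88.93 (exact p = 0.179).

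Of 89 named genes that rose, 58 kept their call under all alternatives in which they were tested, as did 14 of 25 that fell. Of 77 not called, 8 gained a call under some, and several of those near 0 changed sign. No called gene named here reversed its direction. Depth is unknown for TPM and limits genes of few TPM.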

Other observations

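Some further gene groups had a few members called, where 5.29% of all tested genes were called higher and 2.26% lower. The cytoskeletal and one-carbon counts below do not stand apart from those shares. Among 16 tested Hippo and YAP targets 2 rose and 0 fell, the receptor kinase Axl (248 ± 26.5 TPM in tumours, against 110.3 ± 4.91 TPM in controls, SD, n = 5 and 3) and the transcription factor Tead4 (20.6 ± 4.06 TPM in tumours, against 8.64 ± 0.151 TPM in controls). Of 17 cytoskeletal genes 1 rose, the neuronal tubulin Tubb3 (22 ± 7.23 TPM in tumours, against 6.53 ± 0.581 TPM in controls, log2 1.57, SE 0.20, limma adjusted p = 0.000297). Of 20 one-carbon and nucleotide synthesis genes 1 fell, the mitochondrial folate enzyme Aldh1l2 (20.3 ± 9.26 TPM in tumours, against 55.6 ± 2.21 TPM in controls, log2 -1.54, SE 0.33, limma adjusted p = 0.00559). None of 13 amino acid transporters or 20 lysosome and autophagy genes was called. At limma adjusted p under 0.05 alone 4 and 6 were lower and 1 and 2 higher, where 18.2% of all tested genes were lower.

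Among markers of other lymphocytes, Klra4, a receptor of the Ly49 family of natural killer cells, read 11.8, 8.98, 9.05, 8.72 and 8.62 TPM in tumour libraries, 1.54 ± 0.371 TPM in OT1 libraries and 3.79, 2.7 and 3.95 TPM in control libraries. Only 1 of 6 natural killer markers, Klra4, was tested, and 4 were under 1 TPM in all tumour libraries. The list summed to 329 to 600 TPM in OT1 libraries, where Klra4 was low, so Klra4 did not follow its list. Pax5, the B cell factor, read 5.09, 8.29, 7.11, 5.72 and 7.02 TPM in tumour libraries, against 2.84, 2.38 and 2.22 TPM in control libraries. Of 6 B cell markers 2 were tested and only Pax5 was called, while 4 were under 1 TPM in all tumour libraries. The tumour mean of Pax5 exceeded its OT1 mean, though the list summed to 68.5 to 136 TPM in OT1 libraries. Cultured cells already held both genes, and whether they mark natural killer or B cells was not tested.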
